A study of Homo sapiens with 6 samples.

Results

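Transcripts of the 5 NF-kB subunits (NFKB1, NFKB2, REL, RELA and RELB) and of 5 genes whose products restrain the pathway or sit in its feedback loops (NFKBIA, NFKBIE, NFKBIZ, TNFAIP3 and BIRC3) were examined in CNTNAP4 knockout and control osteosarcoma cells. These 10 genes were taken by symbol from a table of 54308 genes, and all 10 had a value in all 6 libraries. The cells were 143B, an established human osteosarcoma line. Vector control (VC) cells had received a vector plasmid, and the methods list a negative control plasmid with its own guide RNA. Knockout (KO) cells had received a CRISPR/Cas9 plasmid aimed at CNTNAP4, a neurexin family membrane protein. The labels give 48 h of transfection for both groups, whereas the methods give a longer incubation before single cells were sorted. Each group held 3 RNA sequencing libraries. According to the methods, colonies were grown from single sorted cells, and fewer KO colonies were expanded than there are KO libraries. The KO libraries thus cannot all come from separate colonies. The labels do not say which colony each library came from, so the KO allele and the colony cannot be told apart. The labels call the replicates biological and the methods call the RNA samples independent, without saying whether they were separate cultures. The p-values therefore measured only the spread between these 6 libraries.

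CNTNAP4 itself had a value in 1 library, VC replicate 3, at a log2 signal of -7.18, and no value in the other 5. The targeted transcript therefore did not check the KO label in these libraries. The paper itself reports the deletion in KO clones by qRT-PCR, western blot and an endonuclease assay. Between 20333 and 21041 genes had a value in each library, and the lowest, median and highest log2 signals were the same in all libraries to 2 decimals (-10.87, 0.62 and 12.04), as quantile normalization gives. Read totals were not given, so depth and counting error are unknown. The 7 mesenchymal and osteoblast markers had values in all 6 libraries. FN1, ALPL, SPARC and COL1A1 were higher in KO (log2 fold changes 0.57, 0.58, 0.37 and 0.33, adjusted p = 0.0105, 0.0202, 0.0213 and 0.0309), COL1A2 was lower (-0.81, adjusted p = 0.0161) and at -4.59 or below in every library, and RUNX2 and VIM did not pass the test. Their summed level, on the log2 scale, was 10.48 to 10.65 in VC and 10.76 to 11.07 in KO. Levels were summed as linear signals, so most of this sum was VIM (10.33 to 10.51 in VC, 10.59 to 10.93 in KO). The summed level of the 6 leukocyte markers was far lower, at -2.54 to -2.16 in VC and -2.90 to -2.38 in KO. Among them CSF1R was higher in KO (log2 fold change 2.16, adjusted p = 0.00571), PTPRC and ITGAM had log2 fold changes of -1.18 and -1.04 and did not pass the test (adjusted p = 0.236 and 0.138), and CD14 and CD3E had values in 3 VC libraries and 1 KO library each. Of the 3 epithelial markers, EPCAM was lower in KO (log2 fold change -0.67, adjusted p = 0.0157) and CDH1 had a value in 1 library. KRT19 went the other way, with a mean log2 signal of -4.46 in VC and -3.45 in KO. Its libraries overlapped between the groups, and KRT19 did not pass the test (adjusted p = 0.471). The endothelial markers PECAM1, VWF and CDH5 were at -4.64 or below. The part of these marker shifts in the results that follow was not tested. In bulk RNA, a change in the share of cells that express a gene and a change in the amount per cell cannot be told apart.

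NF-kB transcription factors are dimers of 5 related subunits that share a DNA-binding domain. In resting cells, inhibitor of kB (IkB) proteins hold most dimers in the cytoplasm. In the canonical branch, cytokine or Toll-like receptors activate an IkB kinase complex that marks the IkB protein for destruction and releases dimers of p50 and RelA, whereas in the noncanonical branch the kinase NIK drives processing of the NFKB2 product p100 to p52, which pairs with RelB. Several NF-kB genes are themselves NF-kB targets, among them NFKBIA and TNFAIP3, whose products shut the pathway down again.

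The promoters of these genes were searched because many of them are known NF-kB targets. RefSeq promoter windows on GRCh38.p14, each running from 250 bases before to 50 bases after an annotated start, were present for 8 of the 10 genes, in 13 windows. RELB and NFKBIE had no entry. The NF-kB consensus, a degenerate 10-letter pattern searched on both strands, occurred in 9 of the 13 windows and in 7 of the 8 genes. It occurred in 11.3% of all 35116 promoters of this length and in 13.3% of all 27305 genes with a promoter entry. Among tested genes with a promoter entry, 17.2% held it. The share was 19.1% in genes higher in KO and 17.8% in genes lower in KO. The stretches that follow show where the match falls in subunit genes that passed the test (NFKB1, NFKB2) or did not (REL) and in 4 of the inhibitor genes, in RefSeq sequence, 5′ to 3′ on the gene's strand, with the bases of each consensus match in capitals. Where a GENCODE exon begins before the end of a match, only 30 bases around a match are given. Annotated exons cover 21 of the 30 bases of NFKB1, 27 of REL and all 30 of TNFAIP3. They cover all 30 at NFKB2 start 2 and 11 at NFKB2 start 3. Further matches, first base at -78 from NFKB2 start 2, -176 from NFKB2 start 3 and -239 from NFKBIZ start 2, are not printed.
NFKB1, chr4:102501300-102501329, plus strand: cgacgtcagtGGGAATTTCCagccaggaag
NFKB2 at start 2, chr10:102394462-102394491, plus strand: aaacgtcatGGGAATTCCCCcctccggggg
NFKB2 at start 3, chr10:102395674-102395703, plus strand: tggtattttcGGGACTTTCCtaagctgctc
REL, chr2:60881518-60881547, plus strand: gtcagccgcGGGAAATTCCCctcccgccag
NFKBIA, chr14:35404750-35404999, minus strand: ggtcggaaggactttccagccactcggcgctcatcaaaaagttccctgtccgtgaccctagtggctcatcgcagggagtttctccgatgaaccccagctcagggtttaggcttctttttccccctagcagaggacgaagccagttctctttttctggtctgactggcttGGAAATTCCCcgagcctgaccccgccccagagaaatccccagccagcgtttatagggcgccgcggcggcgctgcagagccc
NFKBIZ at start 1, chr3:101827740-101827989, plus strand: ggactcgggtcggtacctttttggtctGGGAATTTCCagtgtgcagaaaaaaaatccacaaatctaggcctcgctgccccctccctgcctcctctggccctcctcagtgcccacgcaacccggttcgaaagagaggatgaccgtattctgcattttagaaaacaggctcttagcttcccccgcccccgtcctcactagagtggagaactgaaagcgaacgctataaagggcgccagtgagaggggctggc
TNFAIP3, chr6:137867188-137867217, plus strand: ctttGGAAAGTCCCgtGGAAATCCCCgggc
BIRC3, chr11:102317234-102317449, plus strand: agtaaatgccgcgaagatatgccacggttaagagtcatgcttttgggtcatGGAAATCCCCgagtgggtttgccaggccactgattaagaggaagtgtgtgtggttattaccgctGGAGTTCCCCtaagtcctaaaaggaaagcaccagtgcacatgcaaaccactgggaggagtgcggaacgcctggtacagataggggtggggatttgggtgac
REL held the match although its transcript did not pass the test, and RELA had none in either of its 2 windows although its transcript did. A match of letters is a description and not a binding site.

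**Figure D1:**
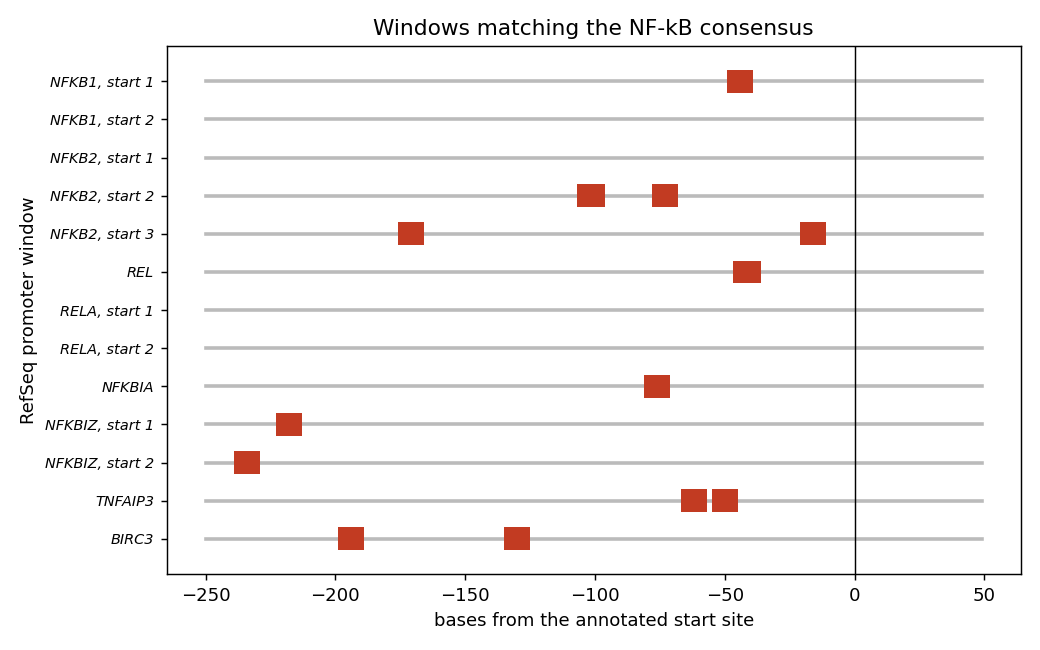
Positions of the NF-kB consensus (red blocks) in the 13 RefSeq promoter windows of 8 genes, in bases from the annotated start (vertical line at 0). Seen from the start, the matches ran from -239 to -12, and 4 of the 13 windows had none.

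Of the 10 genes, 9 were higher in KO, 0 were lower and 1, REL, did not pass the test (limma, adjusted p under 0.05 over all 19306 genes tested). None was lower at an unadjusted p under 0.05 either. Over all genes tested, 13.1% were called higher and 19.8% lower (2526 and 3828 genes). That balance moved with the setting, to 3005 and 3233 with libraries centred on their medians, 757 and 646 without VC replicate 1 and 654 and 569 without VC replicate 3. At least a 2-fold rise was called for 6 of the 10, against 4.10% of all genes. In 9 of the 10, every KO library lay above every VC library, as in 22.6% of the 17698 genes with 6 values. The median log2 fold change was 1.62 over the 10 genes and -0.13 over all genes. These 10 genes were chosen with earlier results of these data known, so their shares are descriptions. With 3 against 3 libraries, an exact permutation test of a single gene cannot give a two-sided p below 0.1.

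**Figure D2:**
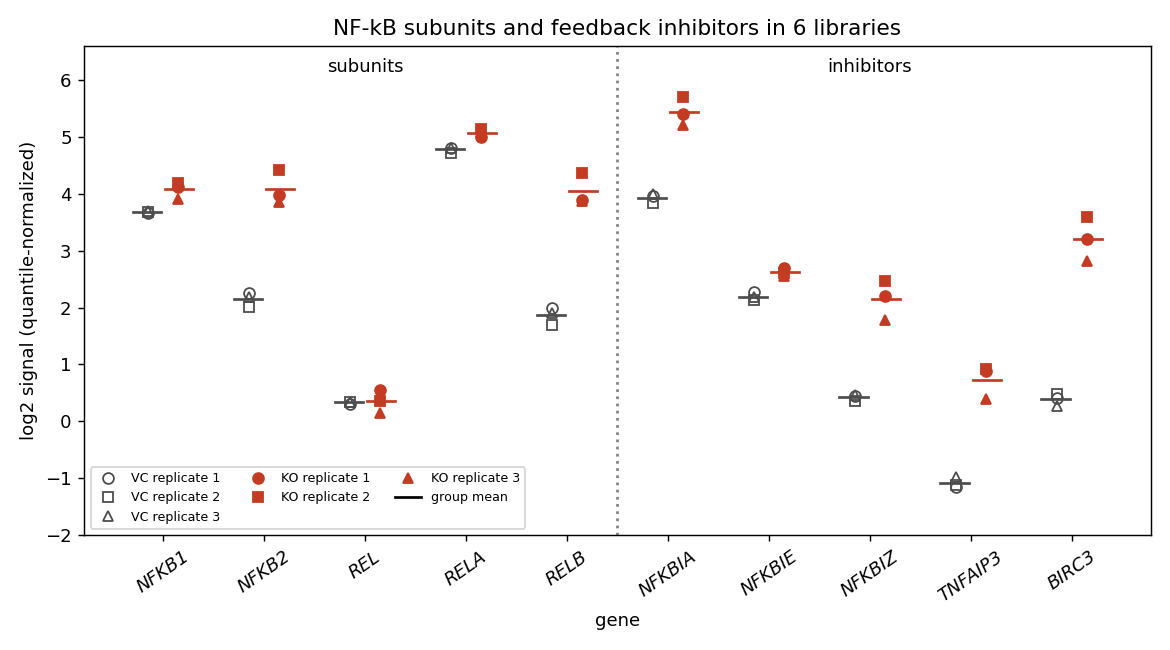
Log2 signal (quantile-normalized, vertical axis) of each of the 10 genes in the 3 VC (open grey) and 3 KO (filled red) libraries, with shapes for the replicate and lines for group means. The groups are apart for 9 genes and overlap for REL, whose 6 values run from 0.15 to 0.55.

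Among the subunits, RELB and NFKB2, the pair of the noncanonical branch, rose most. RELB (chr19:45001430-45038198, GRCh38, plus strand) encodes the subunit that pairs with p52, and had log2 signals of 1.996, 1.70 and 1.91 in VC replicates 1 to 3 and 3.88, 4.36 and 3.88 in KO. The lowest KO library thus stood well above the highest VC library. RELB rose by a log2 fold change of 2.17 (SE 0.17, 95% interval 1.75 to 2.60, 4.51-fold, adjusted p = 0.00597). NFKB2 (chr10:102394110-102402529, plus strand), the source of p100 and p52, read 2.26, 2.004 and 2.18 in VC and 3.99, 4.42 and 3.86 in KO. VC replicate 2 was the lowest and KO replicate 2 the highest for both genes. NFKB2 rose by 1.94 (SE 0.17, 95% interval 1.51 to 2.38, 3.85-fold, adjusted p = 0.00705). Both calls held in each of the 6 fits that left out 1 library.

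The canonical subunits moved less. NFKB1 (chr4:102501329-102617302, plus strand), the source of p105 and p50, had log2 signals of 3.66, 3.68 and 3.70 in VC and 4.13, 4.19 and 3.92 in KO. The VC libraries lay within a narrow band, and all 3 KO libraries were above it. The NFKB1 log2 fold change was 0.40 (SE 0.093, 95% interval 0.16 to 0.63, adjusted p = 0.0303). RELA (chr11:65653596-65663094, minus strand), the transactivating partner of p50, read 4.80, 4.72 and 4.81 in VC and 5.01, 5.14 and 5.08 in KO. The groups did not overlap, but the gap from the highest VC to the lowest KO library was small beside those of RELB and NFKB2. The RELA log2 fold change was 0.30 (SE 0.073, 95% interval 0.11 to 0.48, adjusted p = 0.0335). Neither call was firm. The NFKB1 call was lost without VC replicate 1, 2 or 3 or KO replicate 2 (adjusted p = 0.0955, 0.0795, 0.0906 and 0.0599). The RELA call was lost in the same 4 fits (adjusted p = 0.0971, 0.0886, 0.0969 and 0.0642) and without KO replicate 3 (adjusted p = 0.0958).

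REL (chr2:60881521-60931610, plus strand), which encodes c-Rel, a subunit best known from lymphoid cells, was the exception. Its log2 signals were 0.31, 0.35 and 0.34 in VC and 0.55, 0.36 and 0.15 in KO. KO replicate 1 lay above the VC libraries, KO replicate 3 below them and KO replicate 2 just above the highest. The REL log2 fold change was 0.019 (SE 0.12, 95% interval -0.27 to 0.31, adjusted p = 0.912), and without KO replicate 1 it was -0.080 (adjusted p = 0.488). In GENCODE 29, 5702 of the 13170 exonic bases of REL are shared with AC010733.2, a noncoding gene on the same strand, and how reads in those bases were assigned is not given in the sources used here.

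All 5 inhibitor and feedback genes were higher in KO. BIRC3 (chr11:102317450-102339403, plus strand) encodes cIAP2, a ubiquitin ligase that acts downstream of tumor necrosis factor receptors and keeps NIK low, and is itself an NF-kB target. Its log2 signals were 0.42, 0.48 and 0.28 in VC and 3.20, 3.59 and 2.83 in KO. No other member had so wide a gap between the groups. BIRC3 rose by 2.81 (SE 0.20, 95% interval 2.30 to 3.33, 7.03-fold, adjusted p = 0.00571) and ranked 77 from the highest log2 fold change among all genes tested. TNFAIP3 (chr6:137867188-137883312, plus strand) encodes A20, a ubiquitin-editing enzyme that ends signaling from tumor necrosis factor and Toll-like receptors. It had the lowest signals of the 10 genes in VC, at -1.16, -1.12 and -0.97, and read 0.89, 0.92 and 0.39 in KO. TNFAIP3 rose by 1.81 (SE 0.17, 95% interval 1.39 to 2.23, 3.51-fold, adjusted p = 0.00782). KO replicate 3 was the lowest KO library for both genes and still lay above all VC libraries. Because these signals are low, adding 1 to the linear signal before the log brought the log2 fold change to 2.15 for BIRC3 and 0.86 for TNFAIP3. Both calls were kept, but the rise of TNFAIP3 was then less than 2-fold. In GENCODE 29, TNFAIP3 shares 95 of its 5051 exonic bases with AL357060.1 on the opposite strand, and whether the counting used strand is not given in the sources used here.

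NFKBIZ (chr3:101827991-101861022, plus strand) encodes IkB-zeta, a nuclear IkB protein that is also a coactivator of secondary NF-kB targets. It read 0.45, 0.35 and 0.47 in VC and 2.20, 2.46 and 1.79 in KO. The VC libraries were close together and the KO libraries were spread, with replicate 2 the highest and replicate 3 the lowest. NFKBIZ rose by 1.73 (SE 0.18, 95% interval 1.27 to 2.18, 3.31-fold, adjusted p = 0.00847). NFKBIA (chr14:35401511-35404749, minus strand) encodes IkB-alpha, the rapid feedback inhibitor of RelA and p50 dimers. Its log2 signals were 3.97, 3.84 and 3.99 in VC and 5.40, 5.71 and 5.21 in KO, again without overlap. NFKBIA rose by 1.51 (SE 0.14, 95% interval 1.14 to 1.87, 2.84-fold, adjusted p = 0.00789). The calls of BIRC3, TNFAIP3, NFKBIZ and NFKBIA held in each of the 6 fits without 1 library.

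NFKBIE (chr6:44258166-44265788, minus strand) encodes IkB-epsilon, a slower-acting inhibitor of RelA and c-Rel dimers, and changed least of the inhibitors. Its log2 signals were 2.27, 2.13 and 2.19 in VC and 2.69, 2.61 and 2.55 in KO. The groups were apart, and NFKBIE was the only called member in which KO replicate 1 rather than 2 was the highest. The NFKBIE log2 fold change was 0.43 (SE 0.078, 95% interval 0.23 to 0.62, adjusted p = 0.0179). The call was lost without VC replicate 1, 2 or 3 or KO replicate 3 (adjusted p = 0.0563, 0.0556, 0.0708 and 0.0514).

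**Figure D3:**
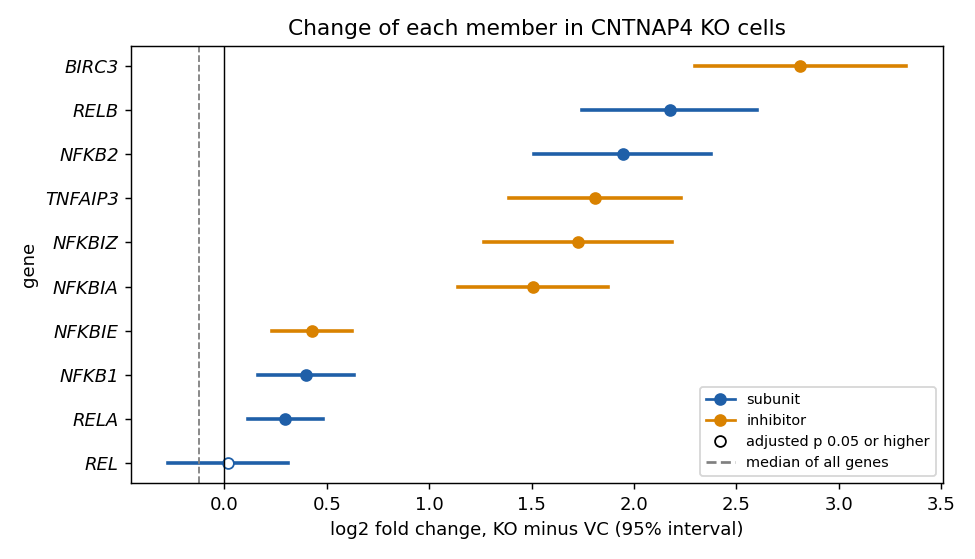
Log2 fold change, KO minus VC, of each gene with its 95% interval (horizontal axis), for subunits in blue and inhibitors in orange, with the median of all genes tested as a dashed line. Changes ran from 0.019 in REL (open circle, not called) to 2.81 in BIRC3.

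KO replicate 2 was the highest KO library in 8 of the 9 called genes. It was also the highest in 79.1% of the 2448 genes called higher that had 6 values, so its place here was that of the called genes at large. What sets that library apart was not tested.

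The signals appear to be scaled by transcript length, since in the 1262 genes that had a value in a single library and a known exonic length the log2 signal fell with log2 exonic bases with a slope of -0.854, which permits an order of levels between genes. In VC, RELA had the highest mean log2 signal (4.78) and was followed by NFKBIA (3.93), NFKB1 (3.68), NFKBIE (2.19), NFKB2 (2.15), RELB (1.87), NFKBIZ (0.42), BIRC3 (0.39), REL (0.33) and TNFAIP3 (-1.08). The libraries of NFKBIE and NFKB2 overlapped, as did those of NFKBIZ and BIRC3 and those of BIRC3 and REL. In KO, NFKBIA (5.44) was ahead of RELA (5.08), followed by NFKB2 (4.09), NFKB1 (4.08), RELB (4.04), BIRC3 (3.21), NFKBIE (2.62), NFKBIZ (2.15), TNFAIP3 (0.73) and REL (0.35). There the libraries of NFKB2 and NFKB1 overlapped, as did those of NFKB1 and RELB and those of TNFAIP3 and REL. By mean signal over the 6 libraries, RELA stood at the 90.6 percentile of the genes tested, NFKBIA at 88.9 and TNFAIP3 at 40.7.

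Differences between members taken within each library changed accordingly. The log2 signal of NFKBIA minus that of RELA was -0.84, -0.88 and -0.82 in VC and 0.39, 0.57 and 0.13 in KO, so the inhibitor was below the subunit in every VC library and above it in every KO library. NFKB2 minus NFKB1 was -1.40, -1.67 and -1.52 in VC and -0.14, 0.24 and -0.055 in KO, so NFKB2 was the lower of the pair in every VC library and lay within 0.24 of NFKB1 in every KO library. RELB minus RELA was -2.81, -3.03 and -2.90 in VC and -1.12, -0.78 and -1.20 in KO, and RELA stayed the higher of the pair in all 6 libraries. The mean log2 signal of the 5 inhibitor genes minus that of the 5 subunit genes was -1.42, -1.35 and -1.40 in VC. In KO it was -0.63, -0.64 and -0.82, a difference of 0.69 that is given as a description without a test. The inhibitor mean includes BIRC3 and the coactivator gene NFKBIZ, with log2 fold changes of 2.81 and 1.73. Those of TNFAIP3, NFKBIA and NFKBIE were 1.81, 1.51 and 0.43.

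Genes of the pathway outside these 10 were counted in 4 lists by role. All 4 lists were fixed with earlier results of these data known, so their shares are descriptions. Of 18 tested receptors and adaptors, 2 were higher and 3 lower, 11.1% and 16.7%, near the shares of 13.1% and 19.8% over all genes, and the median log2 fold change of -0.12 was near theirs of -0.13. IRAK2, a kinase of interleukin-1 and Toll-like receptor signaling, read -0.0055, -0.080 and 0.022 in VC and 2.87, 3.37 and 2.56 in KO (log2 fold change 2.95, SE 0.21, adjusted p = 0.00571, and 2.12 with 1 added to the linear signal). TLR4, the endotoxin receptor, was between 1.13 and 1.16 in VC and between -0.19 and 0.47 in KO, a log2 fold change of -0.98 (SE 0.18, adjusted p = 0.0172), which became -0.59 when 1 was added to the linear signal. TRAF2, an adaptor that recruits cIAP proteins, fell by 0.66 on the log2 scale (SE 0.17, adjusted p = 0.0393). Of these 3, only IRAK2 kept its call without each library in turn. TLR4 lost its call without any 1 of the VC libraries or KO replicate 3 (adjusted p = 0.0614, 0.0542, 0.0626 and 0.0555), and TRAF2 without any library but KO replicate 1 (adjusted p = 0.0508 to 0.113). The list held 1 called gene without VC replicate 1, 2 or 3 or KO replicate 3, 2 without KO replicate 2 and 10 without KO replicate 1.

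Of 16 kinases and ubiquitin ligases, 4 were higher and 1 lower, 25% and 6.25%, against 13.1% and 19.8% over all genes. Their median log2 fold change was 0.013. The lower one was MAP3K14, which encodes NIK, the kinase that starts the noncanonical branch. MAP3K14 read 3.44, 3.37 and 3.50 in VC and 2.13, 1.57 and 1.84 in KO, and fell by 1.59 on the log2 scale (SE 0.15, adjusted p = 0.00789) while its downstream partners NFKB2 and RELB rose. The call held without each library in turn. IKBKE, an IkB kinase-related kinase, rose by 0.55 (SE 0.087, adjusted p = 0.0140), a call lost without VC replicate 3 (adjusted p = 0.0588). RBCK1, a subunit of the linear ubiquitin ligase complex, had a log2 fold change of 0.49 (SE 0.11, adjusted p = 0.0286) and kept its call only without KO replicate 1 (adjusted p = 0.0650 to 0.0839 without the others). The core IkB kinase subunits did not pass the test: the log2 fold change was -0.0032 for IKBKB, -0.029 for IKBKG and -0.34 for CHUK (adjusted p = 0.975, 0.799 and 0.0554). The list held 2 called genes without VC replicate 1 or KO replicate 2, 3 without VC replicate 2 or KO replicate 3, and 1 without VC replicate 3.

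Of 15 other IkB proteins and negative regulators, 5 were higher and 2 lower, 33.3% and 13.3%, against 13.1% and 19.8% over all genes. Their median log2 fold change was 0.088. BCL3, an atypical nuclear IkB protein that binds p50 and p52, rose from between -1.05 and -0.23 in VC to between 0.69 and 0.87 in KO (log2 fold change 1.42, SE 0.22, adjusted p = 0.0132), or by 0.72 when 1 was added to the linear signal. ZC3H12A, which encodes the RNase Regnase-1 that degrades inflammatory transcripts, rose by 1.23 (SE 0.17, adjusted p = 0.0112). Its log2 fold change was 0.89 when 1 was added to the linear signal. TNIP1, which encodes an A20-binding protein, rose by 0.84 (SE 0.13, adjusted p = 0.0135). The classical inhibitor NFKBIB had a log2 fold change of -0.29 and did not pass the test (adjusted p = 0.0964). BCL3 lost its call without VC replicate 1 (adjusted p = 0.0516), and TNIP1 without VC replicate 1 or 3 (adjusted p = 0.0527 and 0.0532). The list held 1 called gene without VC replicate 1, 4 without VC replicate 2 or KO replicate 3, and 2 without VC replicate 3.

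Of 24 tested target genes, 13 were higher and 0 lower (1 at an unadjusted p under 0.05). These shares were 54.2% and 0%, against 13.1% and 19.8% over all genes. Because the list was fixed with earlier results of these data known, an excess over all genes may come from that choice. At least a 2-fold rise was called for 12 of the 24, against 4.10% of all genes. The median log2 fold change was 1.32. With 1 library left out, the called targets ranged from 11 (without VC replicate 3) to 14 (without KO replicate 1 or 3). Not every fit was free of lower calls. Of the called targets, 13 of 14 were higher without KO replicate 1. The counts were 10 of 11 in the upper 50% of mean signal and 14 of 15 with trend and robust moderation. IL1B, the interleukin-1 beta gene, rose from -1.65, -2.36 and -1.72 in VC to 3.19, 4.20 and 3.63 in KO, a log2 fold change of 5.58 (SE 0.32, adjusted p = 0.00478). PTGS2, which encodes cyclooxygenase-2, rose by 5.15 (SE 0.27, adjusted p = 0.00466). CSF2, the granulocyte-macrophage colony-stimulating factor gene, rose by 5.11 (SE 0.37, adjusted p = 0.00571) from a level of -4.51 or below. Adding 1 before the log brought these values to 3.44 for IL1B, 4.002 for PTGS2 and 0.98 for CSF2. These 3 calls held without each library in turn. SOD2, a mitochondrial antioxidant enzyme gene often used as a readout of NF-kB, stood at -0.37 (log2 fold change, adjusted p = 0.0907), and IL6 overlapped between the groups (log2 fold change 0.54, adjusted p = 0.692). TNF, CCL5, CCL20, VCAM1 and SELE had too few values to be tested.

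**Figure D4:**
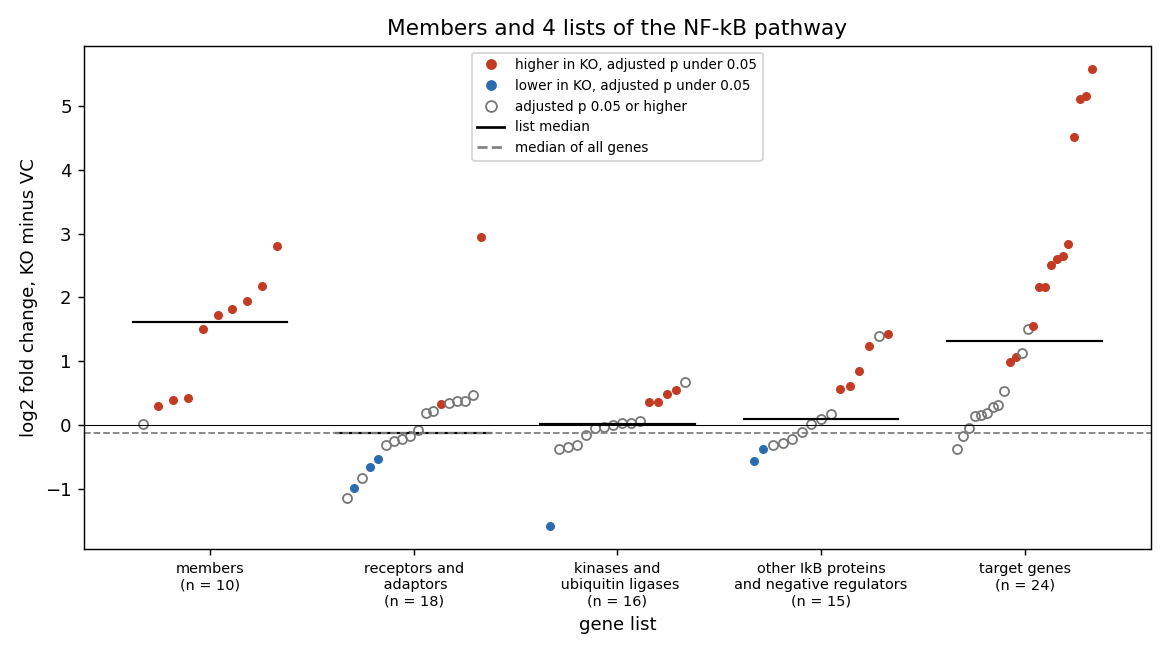
Log2 fold change, KO minus VC (vertical axis), of the 10 genes and of 4 lists of pathway genes, each point 1 gene, filled red when called higher, filled blue when called lower and open when not called, with list medians as lines. The 10 genes (median 1.62) and the target genes (median 1.32) lie mostly above the median of all genes, and the receptors and adaptors (median -0.12) lie around it. Genes and lists were chosen with earlier results of these data known.

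For the 3 genes that rose most, the nearest patterns among the 17688 other genes with 6 values were sought by the root mean square difference between centred log2 signals. For BIRC3 these were TNFRSF11B, which encodes the decoy receptor osteoprotegerin (difference 0.082), IRAK2 (0.118) and STC1, which encodes stanniocalcin-1 (0.179). RELB was nearest to the cell cycle inhibitor gene CDKN1A (0.095), CYTH4 (0.102) and IL32 (0.121), and NFKB2 to ZSWIM4 (0.073), FICD (0.079) and CDKN1A (0.086). Having been chosen for a pattern like that of genes that rose, these genes rise by the choice itself.

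The genes beside these 10 on their chromosomes were counted too. Of the 60 nearest tested protein-coding genes, 3 on each side of each member, 10 were higher and 12 lower, and their median log2 fold change was -0.11. These counts lie near the 13.1% and 19.8% of all genes. Beside BIRC3, the log2 fold change was 0.36 for its paralog BIRC2 (adjusted p = 0.0297), -0.47 for TMEM123 (adjusted p = 0.0190) and -0.12 for YAP1 (adjusted p = 0.275).

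**Figure D5:**
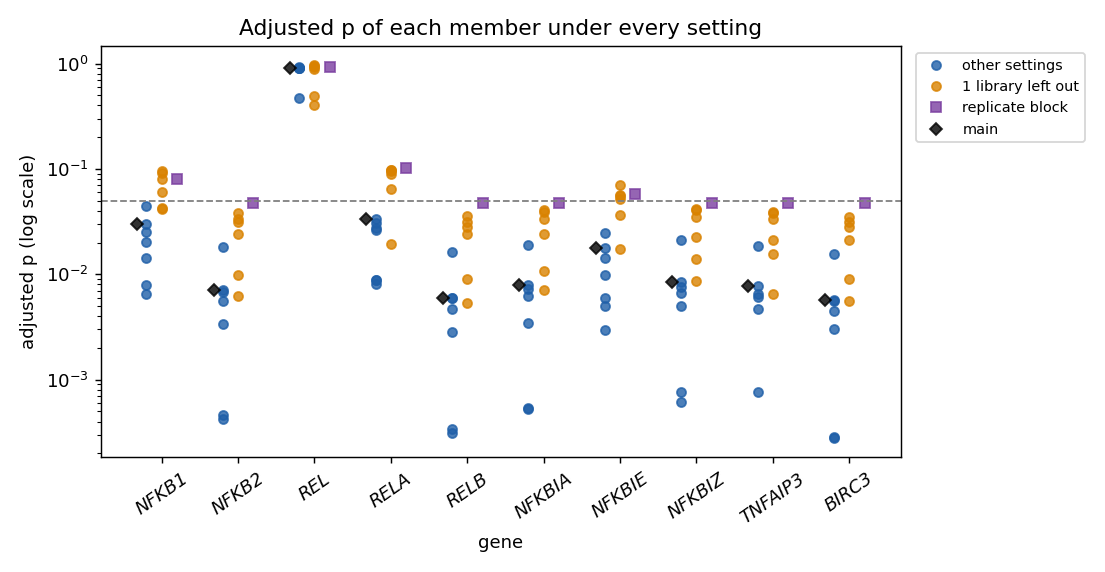
Adjusted p (limma, log axis) of each gene in the reported fit (diamond), with 1 library left out (orange), with a replicate block (purple square) and under the other settings (blue), with 0.05 as a dashed line. NFKB2, RELB, NFKBIA, NFKBIZ, TNFAIP3 and BIRC3 stay below the line in every fit, NFKB1, RELA and NFKBIE cross it and REL stays above it.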

How the data were processed

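RNA was sequenced by the authors from 3 VC and 3 KO libraries. The submitters' processing notes name CASAVA, STAR, Partek and GRCh38.p13, whereas the methods name CLC Genomics software (Server, Workbench) beside Partek. The labels give a stranded mRNA kit and the methods total RNA. The annotation, counting settings and linear unit are not given in the sources used here. The deposited values are log2 signals per gene symbol, quantile-normalized between libraries by the authors, and 29611 of the 54308 genes have no value in any library.

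Genes with at least 2 values per group were tested with limma 3.58.1 in R 4.3.3 (group means, empirical Bayes, two-sided, Benjamini-Hochberg over the 19306 genes tested), after the code was tested on simulated data. A gene was called at an adjusted p under 0.05. Fold changes are on the deposited log2 scale with nothing added. Fitting 14 alternatives changed 1 choice at a time: the genes tested, scaling, 1 added before the log, moderation, a replicate block, and each of the 6 libraries left out. Gene positions are from GENCODE 29 on GRCh38 and promoters from RefSeq on GRCh38.p14. Figures used Python 3.11.15 with pandas 2.3.3 and matplotlib 3.10.9.

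The members and lists were chosen with earlier results of these data known. Named were all 10 members, CNTNAP4, the 3 called genes of each list with the largest absolute log2 fold change, and 3 nearest patterns for each of the 3 members that changed most. CSF1R and other markers, the IkB kinase subunits, NFKBIB, SOD2, IL6, untested targets and the chromosomal neighbors were named in addition, after their values were seen.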

Additional observations from a re-analysis of the deposited data

How the results depend on the processing

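The calls of NFKB2, RELB, NFKBIA, NFKBIZ, TNFAIP3 and BIRC3 held under all alternatives that tested them, the highest adjusted p being 0.0479. The count of called members ranged from 6 to 9 with 1 library left out. REL had log2 fold changes from -0.080 to 0.12 with 1 library left out, reversing without KO replicate 1 (-0.080). With 1 library left out, called genes ranged from 1223 (without VC replicate 3) to 8669 (without KO replicate 1). The main fit of this re-analysis called 6354. In the fits with 1 library left out, called subunits ranged from 2 to 4 and receptors and adaptors from 1 to 10. Kinases and ubiquitin ligases ranged from 1 to 7, and other IkB proteins and negative regulators from 1 to 9. With 1 added to the linear signal, 9 receptors and adaptors and 8 kinases and ubiquitin ligases were called, the difference between inhibitors and subunits was 0.34, and the median over all genes was -0.023. Moderation with trend and robust estimation called 10 and 8 in those lists, no moderation called 2 receptors and adaptors, and restriction to the upper 50% of mean signal called 8 kinases and ubiquitin ligases. Same-numbered VC and KO libraries did not deviate together (r = 0.0226, 0.00509 and -0.00736). The labels do not say whether they were handled together, and with 3 libraries per group these values cannot decide it. In the paired fit with a replicate block, 1533 genes, 2 subunits, 2 receptors and adaptors, 1 kinase or ubiquitin ligase and 0 other IkB proteins and negative regulators (limma, 9 at an unadjusted p under 0.05) were called. The calls of NFKB1, RELA and NFKBIE were lost there (adjusted p = 0.0802, 0.102 and 0.0583). Apart from the fits with fewer libraries or genes, the cause of these differences was not tested. Without read totals, what depth limits could not be measured.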
